A study of Mus musculus with 56 samples.

Results

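The daytime-fed liver was compared with itself 12 h apart, at ZT8 and ZT20 (ZT, zeitgeber time, the hours since the lights came on). The comparison rested on 8 RNA-seq libraries of 56 in the series, 4 from daytime-restricted feeding (DRF) at ZT8, when the lights were on and food was present, and 4 from DRF at ZT20, when it was dark and food had been withdrawn. All animals were female C57BL/6J mice aged 9 weeks. They had arrived at 7 weeks, spent 7 days under 12 h of light and 12 h of dark, and then 7 days on restricted feeding. The rest of the series holds DRF livers at ZT0, 4, 12, 16 and 24 and nighttime-restricted feeding (NRF, the control regimen) livers at all 7 times, with 4 animals in each of the 14 groups. Each library came from a different animal, so a difference between ZT8 and ZT20 is one between animals and not within them. The labels carry no mutation, transgene or drug in any group. Light and food change together between these hours in DRF, so their parts cannot be told apart in this pair of groups alone. At each of these hours the light in NRF is the same as in DRF, and the food schedule is inverted. The main differences below are therefore set beside the same difference in NRF, whose 8 libraries are not shared with DRF.

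The liver clock is a transcriptional loop in which BMAL1 (encoded by Arntl) and CLOCK activate the Per, Cry and Nr1d genes, whose products repress that activity in turn. Feeding time is a strong time cue for this loop in liver. Feeding also raises insulin and sterol- and carbohydrate-responsive transcription and loads the endoplasmic reticulum (ER) with protein to fold, while fasting turns the hepatocyte to fatty acid oxidation, gluconeogenesis, amino acid breakdown and autophagy. Bulk liver RNA cannot tell fewer cells of a type from less RNA per cell.

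Values are scaled counts, count-like numbers recovered from the deposited values and put on one scale for all libraries. Since they are not divided by gene length, a value is set only against values of the same gene. Differences are in log2(scaled count + 1), as ZT8 minus ZT20 with their standard error (SE). A gene is called where its limma test, adjusted by Benjamini-Hochberg over all 25383 genes tested, gave p under 0.05. Recovered counts summed to 424 to 500 M per library at ZT8 and 519 to 634 M at ZT20 (1 M is 1000000), with the groups not overlapping. These sums are far above the average read depth per sample that the paper states, so they are not sequencing depth. Within either group, pairs of libraries correlated across genes at r = 0.97 to 0.982, and libraries of different groups at 0.948 to 0.961. Liver identity was plain in all 8 libraries: Alb, which encodes albumin, read 75498 to 93576 at ZT8 and 81315 to 90715 at ZT20. Summed hepatocyte markers ranged from 99537 to 118741 at ZT8 and 112414 to 130159 at ZT20 (two-sided exact permutation p = 0.143, n = 4 each, where 0.0286 is the smallest p possible). Of the 7 sinusoidal endothelial markers 3, Lyve1, Stab1 and Stab2, were called lower at ZT8, and their list summed to 431 to 511 against 520 to 559. Kupffer cell, stellate cell, cholangiocyte and erythroid sums overlapped between the groups. Of 5 adipocyte markers only Car3, which hepatocytes also express, and Cfd were measured. Cfd was near 0, while Car3 read 1562, 1359.5, 1109 and 1716 at ZT8 and 703, 679, 664 and 681 at ZT20 and was called higher (1.06 ± 0.20), so that the summed list did not overlap either (1109 to 1716 against 664 to 703). Summed mitochondrially encoded transcripts ranged from 6749 to 10202 at ZT8 and from 5123 to 6380 at ZT20, also without overlap (exact permutation p = 0.0286 for each of these 2 sums, 0.0857 after Benjamini-Hochberg adjustment over 15 measures). The part of these measures in the results was not tested.

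In all, 4744 genes (18.7%) were called, 2301 higher at ZT8 (9.07%) and 2443 lower (9.62%), with a median log2 difference of 0.00 over all genes. Most differences were small: 143 genes (0.563%) were called and over 1 log2 higher at ZT8, and 102 (0.402%) were called and over 1 log2 lower. The 8 libraries did not overlap between the groups for 5802 genes (22.9%). Protein-coding genes leaned lower at ZT8, with 1512 called higher and 2238 lower of 15057. Among the 8880 genes with a mean of at least 5 scaled counts in the 8 libraries, 13% were called higher and 20.1% lower. Differences also varied with exon length. Among genes with a mean of at least 5 scaled counts, those with exons of up to 500 bases had a median difference of 0.33 and those over 8000 bases one of -0.13, with a steady fall between. A per-library index of this slope, the median deviation of short genes (under 1000 bases) less that of long genes (over 5000 bases), lay between 0.131 and 0.312 at ZT8 and between -0.244 and -0.0839 at ZT20 (exact permutation p = 0.0286, adjusted p = 0.0857 over 15 library measures). With that trend removed from each library, 2553 genes were higher and 4099 lower (38.4% higher, against 48.5% with it), and with the deposited values taken as they are 1240 were higher and 4594 lower (21.3% higher).

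**Figure D1:**
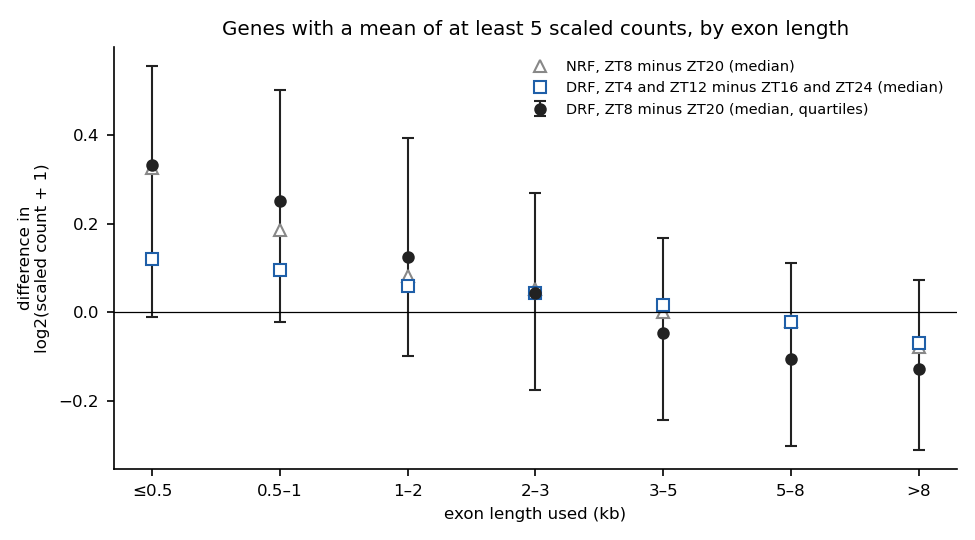
Median difference between ZT8 and ZT20 in DRF (black points; bars span the lower to the upper quartile of genes) by exon length in kilobases, for genes with a mean of at least 5 scaled counts, with the medians in NRF (open triangles) and between neighbouring DRF hours (open squares). The DRF median falls from 0.33 in the shortest class to -0.13 in the longest.

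In NRF the same 2 hours separated 7052 genes (27.8%), 3985 of them higher at ZT8 (15.7%) and 3067 lower (12.1%). The NRF counts of the lists below are to be read against these shares, and their DRF counts against the DRF shares above. Of the 4744 genes called in DRF, 1233 (26%) were called in NRF with the opposite sign, 992 (20.9%) with the same sign and 2519 (53.1%) were not called there. The DRF difference differed from the NRF difference itself for 2467 (52%) of them, against a background of 20.9% of all genes for that test (9.26% with a higher DRF than NRF difference, 11.6% with a lower one). The mean of the DRF and NRF differences was called for 6298 genes (24.8%), 56% of them higher at ZT8 (47.3% with median-of-ratios scaling). The 245 genes called and over 1 log2 in DRF were split more sharply: 139 (56.7%) went the other way in NRF, 24 (9.8%) the same way, and the difference between regimens was called for 202 (82.4%). Neighbouring DRF hours, taken as the mean of ZT4 and ZT12 less the mean of ZT16 and ZT24 in 16 other libraries, were called for 18.6% of all genes (9.5% higher and 9.14% lower). There, 168 (68.6%) of the 245 were called with the same sign and 4 with the opposite sign.

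Of 5 activator genes 3 were called higher at ZT8 and 1 lower, and of 10 repressor genes 2 were higher and 3 lower. Arntl (chr7:113207465-113314126, GRCm38) read 60.4, 55.8, 51.1 and 57.5 in the 4 ZT8 libraries and 19.8, 21.9, 17.2 and 7.95 in the 4 ZT20 libraries. Every ZT8 library was above every ZT20 library, a difference of 1.77 ± 0.19, against -3.74 ± 0.19 in NRF. Clock differed little and the other way (-0.50 ± 0.16) and was the 1 activator called with the same sign in NRF (-1.04 ± 0.16). Npas2, a partner of BMAL1 that can stand in for CLOCK, was near 1 scaled count and differed by 0.51 ± 0.17, and Rora by -0.11 ± 0.07 (adjusted p = 0.356).

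Among the repressors, Cry1 (chr10:85131700-85185064), the late-acting cryptochrome, had the largest rise. It read 147, 139, 147 and 146 at ZT8 and 33.0, 31.4, 36.8 and 34.2 at ZT20, a 4.27-fold difference with SD of 3.90 and 2.26 (n = 4). In NRF the sign was reversed (-3.40 ± 0.20), and the difference between regimens was 5.47 ± 0.28. Nr1d1 (chr11:98767932-98775333), which encodes REV-ERB alpha, the repressor of Arntl, read 5.61, 4.32, 7.21 and 5.34 at ZT8 and 21.2, 48.1, 24.7 and 22.5 at ZT20. All ZT8 values were below all ZT20 values, and ZT20 replicate 2 stood above the other 3. The difference was -2.12 ± 0.31 in DRF and 5.76 ± 0.31 in NRF; 8.55% of the exon bases of Nr1d1 are shared with Thra on the opposite strand, and whether counting used strand is not given. Its relative Nr1d2 followed, at 47.9, 48.8, 52.6 and 51.1 against 166, 146, 156 and 182. Per2 was higher at ZT8, by 0.87 ± 0.26, with its lowest ZT8 library (23.4) just above its highest ZT20 library (21.9), and it was not called without ZT8 replicate 3 (0.66, adjusted p = 0.0913) or ZT20 replicate 1 (0.68, adjusted p = 0.0827). Per1, Per3, Cry2, Bhlhe40 and Ciart were not called, with differences between -0.17 and 0.25, and Bhlhe41 was called lower (-0.32 ± 0.10) at under 1 scaled count, with 19% of its exon bases shared with Gm43909 on the opposite strand.

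**Figure D2:**
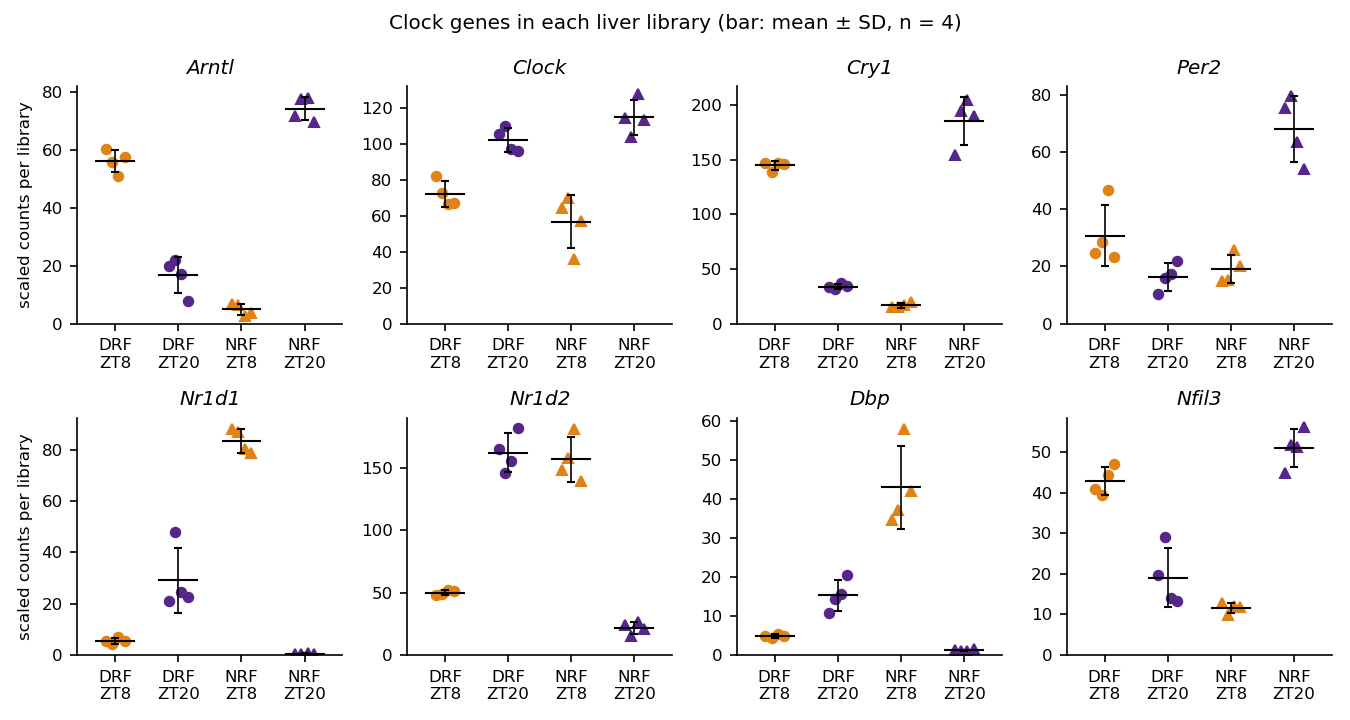
Scaled counts of 8 clock genes in each library of DRF (circles) and NRF (triangles) at ZT8 (orange) and ZT20 (purple), with the mean and SD of 4 animals in black. Arntl, Cry1, Per2 and Nfil3 are higher at ZT8 in DRF and at ZT20 in NRF, Nr1d1, Nr1d2 and Dbp are the reverse, and Clock is lower at ZT8 in both.

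Of the D-box factors, Nfil3 (a repressor) and Dbp (an activator) moved apart. Nfil3 read 40.9, 39.4, 44.3 and 47.0 at ZT8 and 19.7, 29.0, 13.9 and 13.4 at ZT20, and Dbp read 4.81, 4.24, 5.34 and 4.98 at ZT8 and 10.7, 14.3, 15.8 and 20.5 at ZT20. Neither overlapped between the groups, and both had the opposite sign in NRF (-2.04 ± 0.16 and 4.28 ± 0.21); 18.0% of the exon bases of Dbp are shared with Sphk2 on the opposite strand. Tef and Hlf, relatives of Dbp, were not called (-0.48 ± 0.18 and 0.33 ± 0.19). Of 15 clock output genes 5 were called higher and 2 lower. Nampt, which encodes the rate-limiting enzyme of NAD salvage, read 44.3, 43.9, 45.5 and 45.3 against 29.7, 22.0, 27.1 and 33.6, 1.59-fold higher at ZT8. Rgs16 (chr1:153740349-153745468), a regulator of G protein signalling, had the largest fall of the genes named by rule below. It read 0.0679, 0.270, 1.11 and 0.299 at ZT8 and 4.26, 35.3, 21.8 and 17.2 at ZT20. The lowest ZT20 library was still above the highest ZT8 library, which that rule required. Exons on the opposite strand cover 10.1% of Rgs16 (Gm28513) and 13.4% of Tspan4 (Chid1). Leo1, Tspan4, Cdkn1a and Wee1 were higher at ZT8 by 1.29, 1.18, 0.88 and 0.43, and Por was lower (-0.35).

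Over the DRF day, ZT8 and ZT20 were not the turning points of every clock gene. Arntl was at a plateau from ZT8 to ZT16, with means of 56.2 ± 3.89, 57.3 ± 4.36 and 60.1 ± 7.41, and had already dropped to 16.7 ± 6.15 at ZT20, below which it went to 10.4 ± 1.19 at ZT24. Cry1 was highest at ZT8 of the 7 times (145 ± 3.90, against 93.9 ± 7.50 at ZT4 and 97.3 ± 10.5 at ZT12). Nr1d1 was low from ZT4 to ZT12, between 4.13 ± 1.42 and 7.90 ± 2.14, and between 21.9 ± 7.78 and 29.1 ± 12.7 from ZT16 to ZT24. Dbp was lowest at ZT16 (2.12 ± 0.879) and highest at ZT0 (38.9 ± 2.90), so its ZT20 value of 15.3 ± 4.05 lay on the rise. Arntl was not called between the neighbouring hours (0.32 ± 0.13), while Cry1, Nr1d1, Nr1d2, Nfil3 and Dbp were called there with the sign they had between ZT8 and ZT20.

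**Figure D3:**
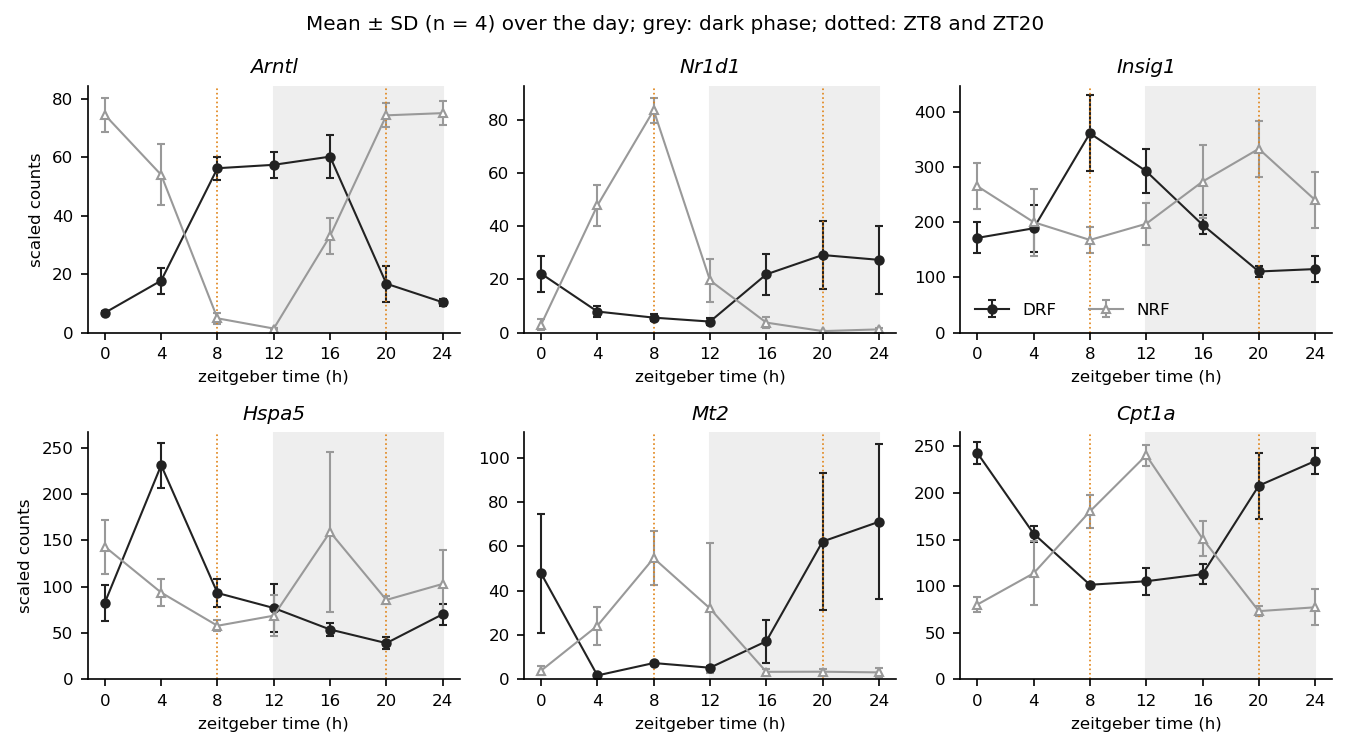
Mean and SD of 4 animals in scaled counts over zeitgeber time in DRF (black circles) and NRF (grey triangles) for Arntl, Nr1d1, Insig1, Hspa5, Mt2 and Cpt1a, with the dark phase shaded and ZT8 and ZT20 dotted. Insig1 peaks at ZT8 in DRF (361 ± 68.8), whereas Hspa5 peaks at ZT4 (231 ± 24.3) and has fallen to 93.2 ± 15.5 by ZT8.

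The 12 largest rises and 12 largest falls were named by rule. The rule took called genes with a mean of at least 10 scaled counts over the 8 libraries and a named Ensembl symbol. It also required no overlap between the groups, so the separation of ZT8 from ZT20 was fixed in advance for all of them. Tfrc (chr16:32608920-32632794), the transferrin receptor that takes up iron, rose most. It read 54.7, 44.8, 34.1 and 61.3 at ZT8 and 4.60, 6.34, 5.36 and 7.67 at ZT20, an 8.13-fold difference, and in NRF it differed by -3.62 ± 0.34. Slc41a2, a magnesium transporter, read 118, 117, 136 and 131 against 21.6, 16.2, 18.9 and 16.2, and Tubb2a, a beta-tubulin, read 72.5, 56.2, 53.3 and 66.4 against 9.99, 11.2, 11.6 and 9.05. For all 3 every ZT8 library was above every ZT20 library, as the rule required. Cyp26a1, the enzyme that clears retinoic acid, read 18.1, 32.4, 28.5 and 37.4 against 4.59, 4.86, 3.75 and 4.92, and Aacs, which makes acetoacetyl-CoA from ketone bodies in the cytosol, read 232, 233, 252 and 180.1 against 40.6, 23.4, 62.2 and 68.7. Mvd, Thrsp and Cry1 are described with their pathways. Sytl5, a synaptotagmin-like protein, and Prom1 (prominin 1) rose by 1.90 ± 0.29 and 1.88 ± 0.35. Another, the mitochondrially encoded mt-Nd5, read 4727, 412, 463 and 1419.5 at ZT8 and 215, 273, 240.2 and 286 at ZT20. ZT8 replicates 1 and 4 carried most of that difference (2.07 ± 0.68, adjusted p = 0.0260), and without ZT8 replicate 1 it was 1.36 (adjusted p = 0.199). The gene was also not called without ZT8 replicate 4 or ZT20 replicate 1 or 3.

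Among the falls, the metallothionein genes Mt2 and Mt1, whose products bind zinc and copper, were among the largest. Mt2 (chr8:94172664-94173568) read 6.89, 7.06, 7.21 and 7.86 at ZT8 and 64.0, 39.7, 105 and 39.9 at ZT20, 8.57-fold higher at ZT20. Mt1 read 7.05, 5.84, 5.92 and 7.89 and 26.1, 23.3, 43.9 and 23.2. Both groups of values lay wide apart, and both genes had the opposite sign in NRF (3.70 ± 0.50 and 3.73 ± 0.44); Gm45774 on the opposite strand shares 73.5% of the exon bases of Mt2. Gpcpd1, a glycerophosphocholine phosphodiesterase, read 32.1, 40.4, 38.9 and 40.7 against 212, 192, 199 and 207. Slc25a47, a mitochondrial carrier of hepatocytes, read 80.3, 82.0, 128 and 104 against 356, 514, 447 and 421, and Arrdc3, an arrestin-domain adaptor, 5.22, 14.9, 7.76 and 4.39 against 39.7, 62.0, 28.6 and 25.4. None of these 3 overlapped between the groups, which the rule fixed in advance. Extl1, Tbc1d30, Fbxo21 and Gprin3 showed differences of -1.83 ± 0.27, -1.82 ± 0.18, -1.75 ± 0.20 and -1.67 ± 0.13. Of the 24 genes, 20 were called in NRF with the opposite sign and 0 with the same sign. The exceptions, not called in NRF at adjusted p under 0.05, were Mvd (-0.55 ± 0.27), Prom1 (-0.68 ± 0.35), Extl1 (-0.51 ± 0.27) and mt-Nd5 (0.64 ± 0.68). The difference between regimens was called for 23, all but mt-Nd5, and 20 were called with the same sign between the neighbouring DRF hours.

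**Figure D4:**
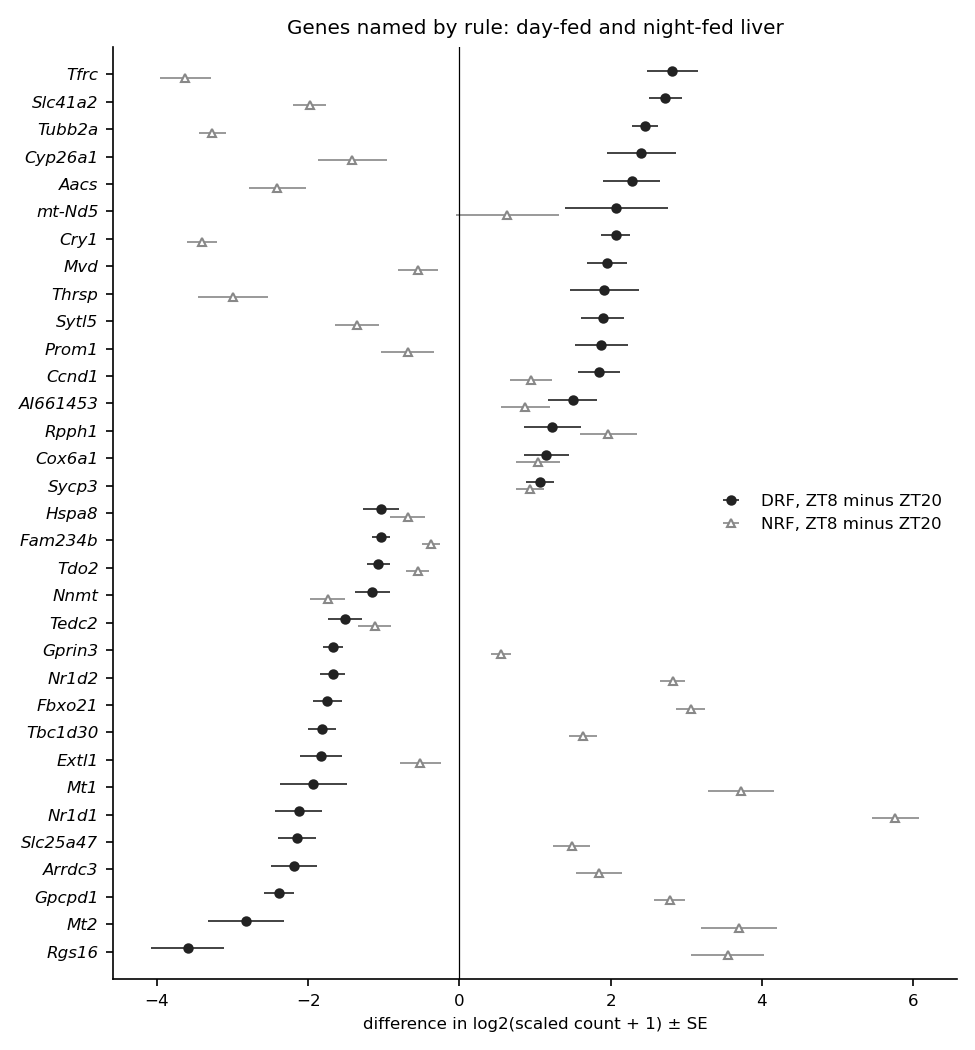
Differences between ZT8 and ZT20 in log2(scaled count + 1) with their SE for the genes named by rule, in DRF (black circles) and NRF (open triangles). Apart from mt-Nd5 and Extl1, the outer genes point opposite ways in the 2 regimens, and the 10 genes in the middle, from Ccnd1 to Tedc2, were chosen for having the same sign in both.

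A further rule, with the same filters on level, symbol and overlap, named the 5 largest rises and 5 largest falls among genes called in both regimens with the same sign. At these hours the regimens share the light and not the food schedule, and no other factor was separated. The sign and the separation of the DRF groups were therefore fixed by the rule, and only the sizes are given. Ccnd1, cyclin D1 of the G1 phase, read 51.9, 58.8, 28.1 and 46.6 at ZT8 and 16.8, 6.80, 8.67 and 18.6 at ZT20, with no overlap, against a difference of 0.95 ± 0.28 in NRF; the gene LTO1 on the opposite strand covers 23.4% of its exon bases. AI661453, Rpph1 (the RNA of ribonuclease P), Cox6a1 (a subunit of cytochrome oxidase) and Sycp3 (a synaptonemal complex protein) were higher at ZT8 by 1.5 ± 0.32, 1.23 ± 0.38, 1.15 ± 0.29 and 1.06 ± 0.19. Exons of other genes cover 73.0% of Rpph1 (Ccnb1ip1, same strand) and 52.2% of Sycp3 (Chpt1, opposite strand). Tdo2, the first enzyme of tryptophan breakdown, read 685, 566, 605 and 757 at ZT8 and 1253, 1358, 1907 and 1069 at ZT20. Nnmt, which methylates nicotinamide, read 105, 63.0, 102 and 151 and 206, 244, 276 and 183, and Hspa8, the constitutive HSP70, 154, 93.2, 174 and 116 and 259, 363, 211 and 264. In each of these 3 all ZT8 libraries were below all ZT20 libraries, as the rule required. Tedc2 and Fam234b showed differences of -1.51 ± 0.22 and -1.04 ± 0.12. Between the neighbouring DRF hours Ccnd1, Tedc2, Nnmt, Tdo2 and Fam234b were called with the same sign. AI661453, Rpph1, Cox6a1 and Sycp3 were not called there, and Hspa8 was called with the opposite sign (0.52 ± 0.16). Rpph1 and Cox6a1 are short transcripts, the class that was higher at ZT8 in general.

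Cholesterol synthesis was higher at ZT8 as a group. Of 20 enzyme genes 12 were called higher and 0 lower, with a median difference of 0.71 against 0.00 over all genes, while the median in NRF was -0.36 and 9 were called lower there. Mvd, which makes isopentenyl diphosphate, read 36.3, 36.2, 41.7 and 31.7 at ZT8 and 7.95, 8.02, 9.69 and 8.96 at ZT20, 4.21-fold higher with the groups well apart. Pmvk, Lss, Sqle and Sc5d, which act before and after squalene, rose by 1.53 ± 0.21, 1.37 ± 0.24, 1.16 ± 0.29 and 1.13 ± 0.15. Hmgcs1, Fdft1, Fdps, Idi1 and Dhcr7 rose by 0.60 to 1.05; Ctsb on the opposite strand covers 18.3% of Fdft1, Gm43738 on the same strand 26.7% of Fdps, and Gm48342 on the opposite strand 12.1% of Hmgcs1. Cyp51 (0.54 ± 0.21) and 7 other members were not called. The deposited values taken as they are left 7 called higher and 1 lower of the 20. The difference between regimens was called for 12, all in the direction of DRF.

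The regulators of that pathway differed in direction among themselves. Srebf1, the SREBP of fatty acid synthesis, read 291, 262, 296 and 281 at ZT8 and 76.6, 55.0, 88.9 and 99.7 at ZT20, and Insig1, which holds SREBP in the ER and is itself an SREBP target, read 379, 451, 319 and 297 against 123, 106, 98.7 and 116. These were 3.26 to 3.53-fold higher at ZT8 with no overlap. Srebf2 (0.39 ± 0.13) and Nr1h3 (0.22 ± 0.07), the liver X receptor alpha, were also called higher. Scap, the SREBP escort, Mylip, a ubiquitin ligase, and Insig2, the fasting-linked form of INSIG, were lower, with differences of -0.40 ± 0.09, -0.50 ± 0.12 and -0.81 ± 0.20, with 13.2% of Scap shared with 5830462I19Rik on the opposite strand. In sum 5 of 14 members were called higher and 3 lower (5 and 7 in NRF), and with the deposited values taken as they are 3 were higher and 6 lower.

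Fatty acid synthesis showed the widest contrast between the regimens among the lipid lists. Of 14 members 8 were called higher at ZT8 in DRF and 0 lower (median 0.54), while in NRF 11 were lower and 1 higher (median -1.27), and the difference between regimens was called for 12. Fasn, the fatty acid synthase, read 429, 401, 848 and 408 at ZT8 and 141, 139, 231 and 193 at ZT20, and Acly, which supplies its acetyl-CoA, 727, 753, 1088 and 852 and 303, 239.7, 324 and 265. ZT8 replicate 3 was the highest library for both, and the groups did not overlap. Pnpla3 (2.20 ± 0.43), Thrsp (1.92 ± 0.46), Elovl6 (1.63 ± 0.32), Fads2 (0.75 ± 0.11), Mlxipl (0.57 ± 0.16), the carbohydrate-responsive factor ChREBP, and Slc25a1 (0.50 ± 0.10) were higher. Acaca, which makes malonyl-CoA, and Me1, malic enzyme, were not called (0.42 ± 0.22 and 0.12 ± 0.27). Scd1 could not be rebuilt from the deposited values and was not analysed here. Fasn was higher still at ZT4 in DRF, with a mean of 729 ± 59.4 against 521 ± 218 at ZT8.

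In triglyceride handling 2 of 17 members were higher and 5 lower, against 3 higher and 5 lower in NRF. The lower count ran from 3 to 8 when single libraries were left out, and the deposited values taken as they are gave 1 higher and 11 lower. Gpam, the first acyltransferase of glycerolipid synthesis, read 563, 612, 1503 and 633 at ZT8 and 229, 267, 279 and 391 at ZT20 with no overlap, and Mgll, monoacylglycerol lipase, rose by 0.78 ± 0.16. Pnpla2, the lipase ATGL, read 7.54, 7.74, 8.42 and 8.47 at ZT8 and 16.5, 14.7, 18.5 and 14.9 at ZT20, so it was 2.0-fold higher in the fasted, dark hour. Its inhibitor G0s2 was also lower at ZT8 (-1.10 ± 0.38), with ZT20 replicate 2 at 33.1 and the other 3 between 9.88 and 10.7, and without that library the difference was -0.70, adjusted p = 0.236. G0s2 was also not called without ZT8 replicate 1, 2 or 4. The droplet proteins Plin2, Cidec and Fitm2 showed differences of -0.63 ± 0.23, -0.45 ± 0.12 and -0.80 ± 0.16.

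Of 24 genes of fatty acid oxidation and ketogenesis 3 were higher at ZT8 and 3 lower, with a median of -0.07, against 9 higher and 2 lower in NRF (median 0.26). The deposited values taken as they are gave 1 higher and 14 lower, so no direction is given for the list. Cpt1a (chr19:3322334-3385733), which admits fatty acids to mitochondria, read 101, 102, 102 and 99.6 at ZT8 and 193, 257, 175 and 206 at ZT20, 2.05-fold higher at ZT20 and the reverse of NRF (1.29 ± 0.14). Ppara and Creb3l3, transcription factors of the fasted liver, showed differences of -0.76 ± 0.14 and -0.72 ± 0.13. The acyl-CoA dehydrogenases Acadl, Acadm and Acadvl differed by -0.10 to 0.10 and were not called. Dvl2 on the opposite strand covers 42.9% of Acadvl. Pdk4, which shuts off pyruvate oxidation, was higher at ZT8 (22.5, 27.8, 23.4 and 19.5 against 9.17, 20.4, 4.35 and 5.44), though ZT20 replicate 2 lay among the ZT8 values. Acaa1b and Bdh1 rose by 0.65 ± 0.18 and 0.54 ± 0.14; Dlec1 and Gm15743, on the opposite strand, cover 11.4% and 13.7% of their exon bases. Of 9 secreted or receptor genes linked to fasting 4 were lower and 0 higher (1 and 3 in NRF). Angptl4, an inhibitor of lipoprotein lipase, read 2.43, 3.23, 6.67 and 4.85 at ZT8 and 11.9, 20.9, 16.2 and 11.1 at ZT20, Inhbe 3.39, 3.96, 4.86 and 3.97 and 10.4, 16.4, 12.7 and 13.7, and the leptin receptor gene Lepr 23.0, 30.9, 31.9 and 16.4 and 60.7, 63.8, 48.3 and 53.0. These 3 did not overlap between the groups. Fgf21 was called lower (-0.39 ± 0.10) at 0.0153 to 1.06 scaled counts in the 8 libraries, near the floor of detection, and without ZT20 replicate 2, the library at 1.06, the difference was -0.18, adjusted p = 0.0595.

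In gluconeogenesis 2 of 15 were higher and 4 lower (5 and 6 in NRF), and with the deposited values taken as they are 2 were higher and 9 lower. Pck1, the gatekeeper enzyme, read 177, 189, 428 and 372 at ZT8 and 690.3, 1139, 679.8 and 802 at ZT20, with no overlap, and was the reverse in NRF (1.69 ± 0.36). Got1, which moves carbon skeletons between mitochondria and cytosol, read 117, 82.7, 141 and 150.3 against 363, 356, 438 and 252, and Slc37a4, the glucose-6-phosphate transporter, showed a difference of -0.84 ± 0.21. G6pc, its partner phosphatase, was not called (-0.75 ± 0.34, adjusted p = 0.127). Sik1, a kinase that restrains CREB coactivators, rose by 1.28 ± 0.24, and Foxo1 was lower (-0.33 ± 0.11). The glycogen-targeting subunits Ppp1r3b and Ppp1r3c, which bring phosphatase 1 to glycogen synthase, read 123, 133, 157 and 116 and 38.7, 38.7, 26.9 and 28.4 at ZT8, against 30.5, 44.9, 54.5 and 48.4 and 10.7, 11.9, 13.1 and 8.71 at ZT20. Both were near 2.96-fold higher at ZT8 without overlap, whereas glycogen synthase itself, Gys2, was not called (0.19 ± 0.11). Of the 11 glycogen genes, Pgm1 was the third called higher (0.28 ± 0.08; Itgb3bp on the opposite strand covers 13.6%), and Ugp2 and Gyg were lower (-0.47 ± 0.16 and -0.65 ± 0.19). In glycolysis and glucose uptake 0 of 15 were higher and 3 lower (2 and 9 in NRF, and 0 and 5 with the deposited values). Of all genes with a mean of at least 5 scaled counts, 20.1% were lower in DRF. When single libraries were left out, 1 to 3 of the list were lower. The 3 lower genes were Slc2a2 (GLUT2), Pdk2 and Pgam1, with differences of -0.82 ± 0.13, -0.50 ± 0.15 and -0.31 ± 0.10. Without ZT20 replicate 3 the difference of Pgam1 was -0.19, adjusted p = 0.246. Pgam1 was also not called without ZT20 replicate 2 or ZT8 replicate 1, 2 or 3.

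Of 17 genes of insulin and FOXO signalling 2 were called higher and 5 lower (6 and 4 in NRF), and the deposited values taken as they are gave 1 higher and 9 lower. Insr, the insulin receptor, read 371, 424, 464 and 402 at ZT8 and 658, 662, 646 and 673 at ZT20, and Trib3, a pseudokinase that binds AKT, 1.13, 1.20, 1.26 and 1.26 and 3.99, 9.06, 5.77 and 3.46. Both were lower in every ZT8 library than in any ZT20 library. Sesn3, Trib1 and Foxo1 were the other lower genes, with differences of -0.59, -0.60 and -0.33, and Akt1 (0.60 ± 0.07) and Tsc22d3 (0.87 ± 0.23) were higher. Irs2 was not called (-0.70 ± 0.28, adjusted p = 0.0786), nor was Igfbp1 (0.73 ± 0.62), whose values ranged over 23.5 to 63.0 at ZT8. In the glucocorticoid list 2 of 16 were higher, Cdkn1a and Tsc22d3, and 3 lower, Mt2, Mt1 and Klf9 (-1.01 ± 0.15), while Fkbp5 (-0.51 ± 0.44), Per1 and Tat were not called.

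**Figure D5:**
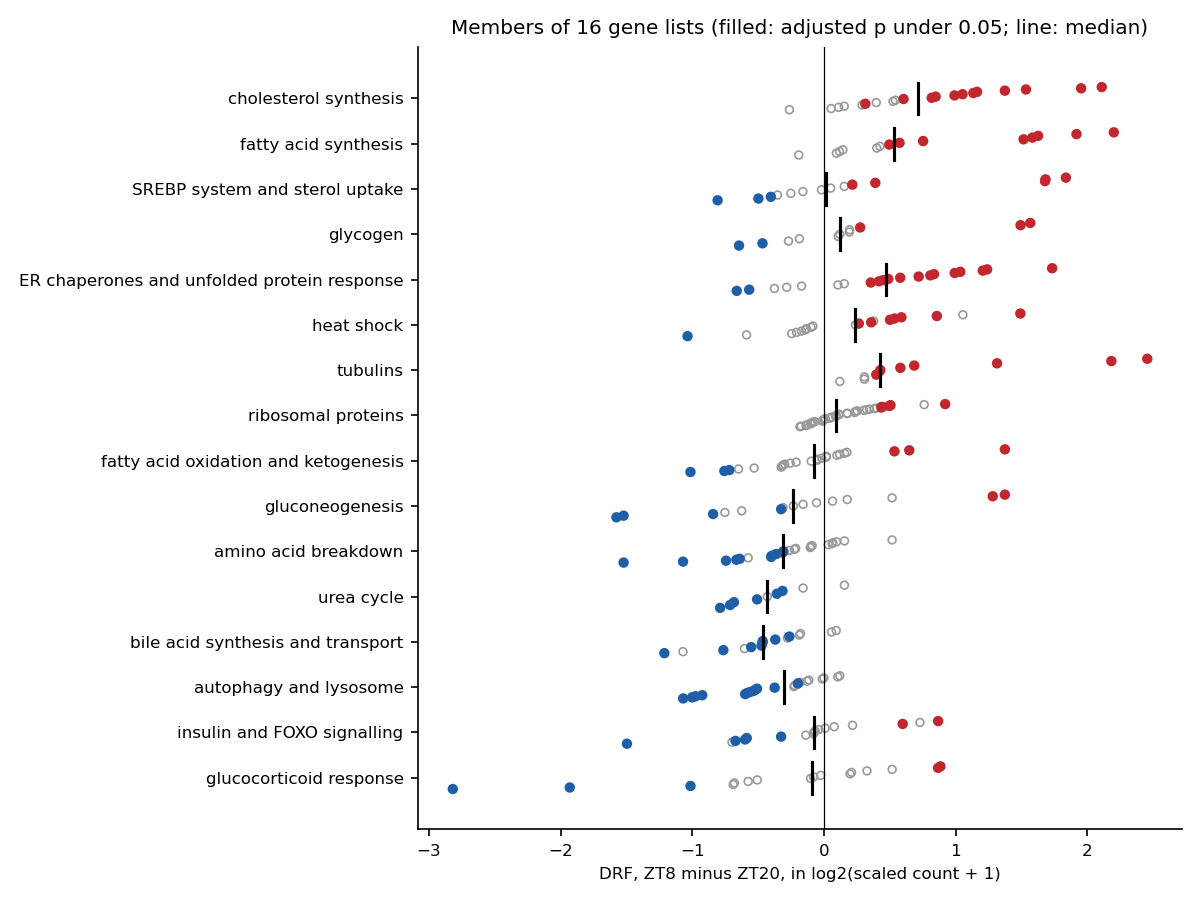
Difference between ZT8 and ZT20 in DRF for each member of 16 gene lists, with filled points for called genes (red higher, blue lower at ZT8), open points for the rest and a black line at each list's median. Cholesterol synthesis, fatty acid synthesis, ER chaperones and tubulins lie to the right of 0, and the urea cycle, bile acid and autophagy lists to the left.

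ER chaperones were higher at ZT8 in DRF. Of 20 members 13 were called higher and 2 lower (median 0.47), while in NRF 14 were lower and 1 higher (median -0.61), and the difference between regimens was called for 17, of which 15 were in the direction of the DRF rise. Between the neighbouring DRF hours 16 were higher and 1 lower. Hspa5 (chr2:34771970-34777547), which encodes the master chaperone BiP, read 111, 73.3, 91.8 and 97.0 at ZT8 and 29.5, 43.9, 40.5 and 41.7 at ZT20. Creld2, a chaperone for disulfide-rich proteins, read 30.5, 41.8, 15.3 and 18.4 against 6.22, 6.03, 6.45 and 8.20, and Hyou1, a nucleotide exchange factor for BiP, 85.5, 113, 71.3 and 73.0 against 37.9, 30.3, 39.1 and 37.1. For each of these 3 the lowest ZT8 library was above the highest ZT20 library. Dnajb11, Manf, Sdf2l1, Hsp90b1 and Pdia3 rose by 1.04 ± 0.17, 0.99 ± 0.23, 0.84 ± 0.22, 0.81 ± 0.15 and 0.72 ± 0.13; Hsp90b1 shares 10.3% of its exon bases with 1810014B01Rik on the opposite strand. Pdia4, Pdia6, Calr, Sec61b and Dnajc3 rose by 0.36 to 0.58. The called members that were lower were Atf6, a sensor of unfolded protein (-0.57 ± 0.09), and Dnajb9, a target of the IRE1 branch (-0.66 ± 0.22). Xbp1, the effector of IRE1, and Canx were not called (-0.17 ± 0.10 and 0.11 ± 0.07). The deposited values taken as they are left 6 called higher and 5 lower of the 20.

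Some of the chaperone promoters held a sequence for which the class is known. The ER stress response element (ERSE), searched as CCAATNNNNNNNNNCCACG on both strands within the 250 bases before each RefSeq transcription start, was present in 7 of the 16 members with a promoter in RefSeq (GRCm38.p6), or 43.8%. It was present in 22 of the promoters of the 13054 tested genes that could be matched, or 0.169%. Among genes called higher at ZT8 it was in 7 of 1355, and among those called lower in 1 of 1785. The count among genes called higher includes the matched chaperones other than Canx, so it is not separate from the list. The element's ends are bound by NF-Y and by ATF6 or XBP1 in the textbook account, and a match here is a description of letters only. The windows are shown because they carry the element, 5 of them beside genes called higher. Each is given 5′ to 3′ in the direction of its gene, with the match in capitals and 30 bases on either side.
Creld2, chr15:88819490-88819568, plus strand: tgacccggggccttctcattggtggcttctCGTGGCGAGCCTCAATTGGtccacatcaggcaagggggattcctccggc
Hsp90b1, chr10:86705608-86705686, minus strand: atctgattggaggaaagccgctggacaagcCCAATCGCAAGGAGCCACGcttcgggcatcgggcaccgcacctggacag
Pdia6, chr12:17266461-17266539, plus strand: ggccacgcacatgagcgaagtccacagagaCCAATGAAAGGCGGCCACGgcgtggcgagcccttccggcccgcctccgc
Calr, chr8:84847045-84847123, minus strand: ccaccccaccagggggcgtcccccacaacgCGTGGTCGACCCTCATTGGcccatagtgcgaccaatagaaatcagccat
Dnajc3, chr14:118937797-118937875, plus strand: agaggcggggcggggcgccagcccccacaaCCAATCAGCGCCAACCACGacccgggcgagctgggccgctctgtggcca
Canx, chr11:50325770-50325848, minus strand: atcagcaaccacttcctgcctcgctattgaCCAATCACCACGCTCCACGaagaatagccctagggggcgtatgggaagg
In Creld2 and Calr the element reads in the reverse direction, beginning with CGTGG and ending with ATTGG. In Hspa5 the match, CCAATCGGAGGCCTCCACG at chr2:34772025-34772043, begins 65 bases before the RefSeq start. Hsp90b1 held a second match nearer its start. Canx was the only one of the 7 genes not called in DRF, and the rises of the others ran from 0.36 in Dnajc3 to 1.73 in Creld2. Hyou1, Dnajb11, Manf and Sdf2l1, which also rose, had no match to these letters in this window or no promoter in the table.

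Heat shock genes were split between DRF rises and genes that did not pass the test, with 1 called lower. Of 19 members 7 were called higher and 1 lower in DRF, 14 were lower and 0 higher in NRF, and the difference between regimens was called for 13, all in 1 direction. Hsp90aa1, the inducible HSP90, read 145, 159.9, 95.1 and 135 at ZT8 and 46.5, 43.7, 48.4 and 45.8 at ZT20, and Stip1, which links HSP70 to HSP90, 134, 95.5, 98.4 and 131 and 56.7, 68.2, 60.7 and 63.4. Both were higher in every ZT8 library, but Hsp90aa1 was not called without any 1 of 4 libraries (ZT8 replicates 1, 2 and 4 and ZT20 replicate 2, where the difference ran from 1.40 to 1.48). Cacybp, Hspb1, Hsp90ab1, Hspa4l and Hspd1 rose by 0.26 to 0.59, while Hspa8 fell. The strongly inducible Hspa1a and Hspa1b, which are near-identical, were at or under 2.64 scaled counts and were not called, and neither were Hsph1 (-0.14 ± 0.31) and Dnajb1 (-0.17 ± 0.18). Hsph1 nevertheless differed between regimens by 2.20 ± 0.44, through its NRF difference of -2.34 ± 0.31. With the deposited values taken as they are, 0 were called higher and 3 lower. Of the 2 cold-inducible RNA-binding genes, Rbm3 was higher at ZT8 (0.71 ± 0.14), with the same sign in NRF (0.40 ± 0.14), and Cirbp was not called (0.22 ± 0.19).

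In the stress-response list that holds ATF4 targets and serine synthesis, 2 of 16 were higher (Ddit4 and Psph, by 0.59 and 0.35, with 10.4% of Psph shared with Cct6a on the opposite strand) and 3 lower (Asns, Sesn2 and Trib3, at -0.31, -0.53 and -1.5). Ddit3, the CHOP factor of prolonged ER stress, read 2.08, 2.74, 2.99 and 2.31 at ZT8 and 2.47, 2.44, 1.70 and 2.39 at ZT20 and was not called. The groups overlapped for Ddit3 and Atf4 differed by 0.09 ± 0.17.

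Nitrogen metabolism was lower at ZT8. In the urea cycle 6 of 9 were called lower and 0 higher (median -0.43), and unlike the lipid lists the NRF median had the same sign (-0.67, 6 lower). Cps1, the entry enzyme, read 14968, 13003, 17288 and 18954 at ZT8 and 24015, 29263, 32854 and 24593 at ZT20, and Arg1, which releases urea, 744, 678, 779.5 and 899 and 1225, 1277, 1455 and 1123. Both groups were apart for both genes. Asl, Slc25a15, Slc25a13 and Otc showed differences of -0.68 ± 0.16, -0.51 ± 0.12, -0.36 ± 0.08 and -0.31 ± 0.08, and Ass1 was not called (-0.43 ± 0.21). Of 25 genes of amino acid breakdown 10 were lower and 0 higher (median -0.31, NRF -0.24). Besides Tdo2 and Got1 these were Oat, Gpt2, Cth, Aass, Hgd, Mat1a, Kmo and Cbs, with differences from -0.74 to -0.31. Tat, which starts tyrosine breakdown, was not called (0.52 ± 0.25), although it was lower in NRF (-1.29 ± 0.25).

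Bile acid genes were lower at ZT8 in DRF without a matching change in NRF: 8 of 16 were lower and 0 higher (median -0.47), against 3 lower and 3 higher in NRF (median 0.04). Cyp8b1, which sets the share of cholic acid, read 44.1, 33.7, 19 and 44.0 at ZT8 and 82.2, 97.0, 93.8 and 51.6 at ZT20. Abcb11, the bile salt export pump, read 419, 451, 578 and 475 against 798, 821, 823 and 804, and Slc10a1, the sodium-dependent uptake carrier, 566, 473, 699.6 and 649 against 688, 839.9, 975 and 785. Cyp8b1 and Abcb11 did not overlap between the groups, and Slc10a1 overlapped by 1 library of each. Cyp7a1, the rate-limiting enzyme of bile acid synthesis, read 125, 52.6, 109 and 185 and 208, 86.8, 218 and 183, with the groups overlapping, and was not called (-0.60 ± 0.38). Nr1h4, the bile acid receptor FXR, Slco1b2, Slc27a5, Cyp27a1 and Abcc2 showed differences of -0.47 ± 0.10, -0.55 ± 0.13, -0.47 ± 0.11, -0.37 ± 0.11 and -0.26 ± 0.08.

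Autophagy and lysosome genes were also lower, 12 of 22 with 0 higher (median -0.30, NRF 0.10), and the difference between regimens was called for 10, all lower in DRF. Map1lc3b, an LC3 of the autophagosome membrane, read 6.42, 12.2, 7.07 and 6.68 at ZT8 and 22.4, 13.6, 26.4 and 11.6 at ZT20, and overlapped by 1 library of each group. Wipi1, a phosphoinositide reader at the forming membrane, read 15, 18.9, 16.2 and 16 against 33.4, 27.4, 45.0 and 30.1, and Ulk1, the initiating kinase, 40.4, 43.6, 45.7 and 40.3 against 64.5, 57.2, 70.4 and 65.1. Both were lower in every ZT8 library, and both had the opposite sign in NRF (1.0 ± 0.14 and 1.36 ± 0.13). Gabarapl1, Bnip3, Atg14, Bnip3l, Lamp2, Atg13, Rb1cc1, Atg5 and Lamp1 showed differences of -1.0 to -0.20; 28.3% of Gabarapl1 and 22.3% of Bnip3 exon bases are shared with transcripts on the opposite strand. Tfeb, the transcription factor of lysosomal genes, was not called (-0.11 ± 0.14).

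Of 11 tubulin genes 7 were called higher and 0 lower (median 0.43), 10 were lower and 0 higher in NRF (median -1.10), the difference between regimens was called for 10, and all 11 were higher between the neighbouring DRF hours. Beside Tubb2a, Tubb2b read 7.98, 6.68, 6.72 and 7.45 at ZT8 and 1.23, 1.27, 0 and 1.09 at ZT20, and Tuba4a 25.7, 18.8, 18.0 and 25.3 and 7.62, 7.83, 7.72 and 9.42. None overlapped, but tubulin genes share sequence, so reads of close copies could be split among them, and Stk16 on the opposite strand covers 37.3% of Tuba4a. In the cell cycle list 7 of 20 were higher and 1 lower, and 8 and 1 in NRF. After Ccnd1, the genes that rose were the replication helicase subunits Mcm5 (1.41 ± 0.29), Mcm6 (1.25 ± 0.29), Mcm3 (0.90 ± 0.20) and Mcm2 (0.90 ± 0.19), with Cdkn1a and Wee1, both brakes on the cycle. Mcm5 read 4.18, 11.0, 2.56 and 9.35 at ZT8 and 1.84, 1.47, 1.19 and 2.04 at ZT20, with ZT8 replicates 2 and 4 far above the other 2. The mitotic genes Mki67, Ccnb1, Cdk1 and Top2a were not called (-0.09 to 0.31), and Rrm2 was lower (-0.83 ± 0.20).

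Genes for making ribosomes and proteasomes had small median differences. Of 41 ribosomal protein genes 5 were called higher and 0 lower (median 0.09), Rpl38, Rpl37, Rpl27, Rpl11 and Rps15, and these are short transcripts. Leaving out single libraries brought that count to as few as 1. Of 30 ribosome biogenesis genes 6 were higher, among them Mybbp1a (0.70 ± 0.10) and nucleolin, Ncl (0.48 ± 0.14), and 4 lower (median -0.09). Between the neighbouring DRF hours the same list had 24 higher and 0 lower. Of 30 proteasome genes 4 were higher and 0 lower (median 0.15). The groups did not overlap for 15 of them higher at ZT8 and for 1 lower, against 11.9% and 10.9% of all genes. In NRF 1 was higher and 8 lower, and the difference between regimens was called for 9, all higher in DRF. Of 30 nuclear respiratory chain genes 5 were higher and 1 lower (median 0.00), with Cox5b the largest (1.02 ± 0.30). With the deposited values taken as they are the ribosomal list had 0 higher and 7 lower and the respiratory list 1 higher and 15 lower, so no direction is given for either.

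The remaining hepatocyte lists had few calls. Of 22 acute-phase and serum protein genes 6 were lower, the fibrinogen chains Fga, Fgb and Fgg with Crp, Cp and Serpina3n, at -0.46 to -0.32, and 0 were higher, to be read against the 20.1% lower among all genes with a mean of at least 5 scaled counts. Of 21 xenobiotic genes 4 were higher and 3 lower, with 0 to 4 lower when single libraries were left out. The near-identical Cyp2a4 and Cyp2a5 read 498, 521, 338 and 443 and 992, 674, 953 and 1002 at ZT8, against 171, 202, 186 and 123 and 349.9, 424, 381 and 541 at ZT20, and neither overlapped between the groups, but reads could be split between the copies. Cyp2b13 and Nqo1 were higher by 0.82 ± 0.20 and 0.63 ± 0.15, and Cyp3a13, Por and Ugt1a1 were lower, the last with 58.9% of its exon bases shared with Ugt1a6a. Of 22 growth hormone and sex-biased genes Igf1 was higher (0.49 ± 0.16), and Mup20, Socs2 and Sult3a1 were lower (-0.94 ± 0.28, -0.95 ± 0.35 and -1.02 ± 0.35), Mup20 belonging to a family of near-identical copies; without single libraries 0 to 4 of the list were lower.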

How the data were processed

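Liver RNA of female C57BL/6J mice was sequenced in 56 libraries (4 animals in each of 14 groups of regimen and zeitgeber time), made by the study from ribosomal RNA-depleted, strand-specific libraries; the labels name polyA RNA in another field. The submitters' processing notes name CASAVA 1.8 and featureCounts 1.5.0-p3 with builds mm10 and GRCm38.p6; the aligner and the use of strand are not given in the sources used here.

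The deposited gene values are named TPM, but they are treated as a score: in each library, value times exon length follows a logarithm of 1 plus a scaled whole number, and all libraries of the authors' table sum to 995320 to 997990. That logarithm was inverted to give scaled counts, with 1 unit equal to 304 to 723 recovered counts. A recovered count is not 1 read, since the sums per library are far above the average read depth that the paper states. What unit it stands for is not known. Recovered counts were whole within 0.05 for 22918 genes with the annotated exon length and for 2231 with a length found by search; 234 were too deep to judge and were kept, and 32 of 25415 listed genes, among them Scd1, Ttr and C3, gave no whole counts and were dropped, so 25383 were tested. The filter (mean deposited value of at least 0.1) removed 0 genes.

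Tests used limma 3.58.1 (R 4.3.3) with a variance trend on log2(scaled count + 1), 1 mean per group over all 56 libraries (42 residual degrees of freedom) and Benjamini-Hochberg adjustment over all genes. A count test was not used, since the deposited values are not counts. Library measures were compared by two-sided exact permutation tests. The fit was tested on simulated data. Pairs of replicates differed with a chi-square of 420 to 874 per degree of freedom when recovered counts were taken as counted units. Since a recovered count is not 1 read, that scale is not the sampling noise of reads. Each replicate was counted once.

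The genes named were the 12 largest rises and 12 largest falls, and the 5 largest each way with the same sign in NRF. These were called, had a mean of at least 10 scaled counts over the 8 libraries and did not overlap between the groups. They also had an Ensembl identifier and a symbol that is neither a Gm number nor a Rik clone. Members of 39 gene lists and of cell type marker lists were named as well. The lists and the pair of hours were chosen with earlier results of these data known. Genes named from a list were those called and those whose role the list turns on. Exon overlaps of 10% or more with another annotated gene are given for the genes named. Promoters are from RefSeq. The alternatives tried were other scalings, pseudocounts, filters, values, a length correction, other samples in the fit, a replicate block and leaving out each library. Some genes that the rule or the lists hold, 1 of them among the 24 largest differences, are not reported here by name; counts include them. The transcript and circular RNA tables were not used here.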

Additional observations from a re-analysis of the deposited data

Results flagged for a closer look

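Single libraries stood apart from the other 3 of their group in 29 of the groups of 4 values of the genes named here and in 3 groups of library measures, of 550 groups examined. The measure was Dixon's Q, the gap to the nearest library as a share of the group's range, above its 95% critical value for 4 samples. Chance alone gives about 1 such group in 20, which is close to the share seen, so no single one of them is a finding.

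DRF ZT20 replicate 2 was the high library for G0s2 (Q = 0.966), Fgf21 (0.92), Nr1d1 (0.872), Atg14 (0.843), Egr1 (0.988), Junb (0.858) and Atf3 (0.852), and the low one for Dnajb11 (0.855) and Hsp90b1 (0.842). Its values were 18.1 for Atg14 against 14 to 14.7 and 37.5 for Dnajb11 against 45.3 to 46.6 in the other 3. DRF ZT8 replicate 3 was the high library for the lipid genes Fasn (0.937), Gpam (0.926) and Me1 (0.91), at 848, 1503 and 2739.9 where the other 3 held 401 to 429, 563 to 633 and 1161 to 1303, and for Hspa1a (0.955). DRF ZT8 replicate 2 was high for Atf4 (0.929), Map1lc3b (0.888) and Socs2 (0.844) and low for Mat1a (0.939), Pgm1 (0.901), Cry1 (0.854) and Cyp2a5 (0.851). DRF ZT20 replicate 4 was high for Akt1 (0.899) and Tuba4a (0.885) and low for Rpl27 (0.837), replicate 3 of that group was high for Mt1 (0.857) and Idi1 (0.841) and low for Ddit3 (0.894) and Tubb2b (0.862), and replicate 1 was high for Pdia6 (0.84). DRF ZT8 replicate 4 was high for Tspan4 (0.851). Of the library measures, recovered counts were high in DRF ZT20 replicate 4 (634 M against 519 to 532 M, Q = 0.885), the summed Kupffer cell markers in DRF ZT8 replicate 2 (987 against 693 to 730 scaled counts, 0.876) and the summed T and B cell markers in DRF ZT20 replicate 1 (2.68 against 0.926 to 1.19, 0.851).

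The ZT8 to ZT20 difference differed between DRF and NRF for 5301 genes by the interaction term of the limma model (adjusted p under 0.05). Of the 24 genes named by rule for the size of their DRF difference, 23 were among them. In log2 units, among those described here, the DRF difference exceeded the NRF difference by 6.44 in Tfrc, 5.72 in Tubb2a, 5.47 in Cry1, 4.91 in Thrsp, 4.70 in Slc41a2, 4.69 in Aacs, 3.82 in Cyp26a1, 3.25 in Sytl5, 2.56 in Prom1 and 2.50 in Mvd. For the genes lower at ZT8 in DRF the corresponding values were -7.89 in Nr1d1, -7.14 in Rgs16, -6.52 in Mt2, -5.66 in Mt1, -5.17 in Gpcpd1, -4.80 in Fbxo21, -4.50 in Nr1d2, -4.04 in Arrdc3, -3.63 in Slc25a47, -3.46 in Tbc1d30, -2.22 in Gprin3 and -1.32 in Extl1. These genes were chosen for the size of their DRF difference, so the sizes describe them and do not support one another.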

How the results depend on the processing

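The DRF count of 4744 called genes lay between 3330 and 6652 under the other choices: 4848 with median-of-ratios scaling, 4728 and 4751 with pseudocounts of 0.1 and 5, 4766 without the variance trend, 5995 on the 28 DRF libraries, 4404 on the 8 libraries alone, 5834 with the deposited values as they are and 6652 with the exon-length trend removed. Requiring a mean of at least 5 scaled counts left 8881 genes, so the counts fell with the number tested, to 3330 for the DRF difference, 3444 for the difference between regimens, 3768 for the mean of both and 3120 for the neighbouring hours; the mean of both rose to 9581 with the length trend removed, and the cause was not tested. Leaving out each of the 8 libraries in turn gave 3814 to 4300 genes for DRF, 4852 to 5165 for the difference between regimens and 5646 to 6090 for the mean of both. The unfiltered table gave the same 4744 because no gene fell below the filter.

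Of 260 genes named here, 115 crossed the threshold or reversed under some choice. The deposited values reversed the sign of Acadl (-0.058), Dnajc3 (-0.015), Hspd1 (-0.027), Igf1 (-0.000299), Nr1h3 (-0.026) and Pgm1 (-0.026) and took the call from 46 others; the 8 libraries alone took it from 47, and median-of-ratios scaling, the length trend and a pseudocount of 5 from 5, 7 and 5. Leaving out 1 library took the call from 71 of the 218 called, at adjusted p of 0.0501 to 0.322: 45, 33, 20 and 35 without ZT8 replicates 1, 2, 3 and 4, and 24, 40, 33 and 18 without ZT20 replicates 1, 2, 3 and 4. Besides those given with their values, they were Aass, Asns, Bhlhe41, Cbs, Cela2a, Cidec, Clock, Col4a2, Cox5b, Cp, Crp, Cth, Cyp27a1, Cyp2f2, Cyp3a13, Ddit4, Dhcr7, Dnajb9, Dnajc3, Fdps, Fga, Fgg, Foxo1, Gabarapl1, Gyg, Hspa4l, Hspb1, Hspd1, Idi1, Igf1, Kmo, Lamb1, Lamp1, Lect2, Mat1a, Mup20, Myc, Ncl, Nid2, Nmnat1, Npas2, Nr1h3, Pdia6, Pdk2, Pgm1, Plin2, Por, Psph, Rpl11, Rpl27, Rpl37, Rpl38, Rpph1, Rps15, Snhg8, Socs2, Srebf2, Sult3a1, Trib1, Tsc22d3, Ugp2, Ugt1a1 and Wee1. The difference of Foxo1 (-0.33) was -0.52 without ZT8 replicate 3. Over those 8 fits the cholesterol list kept 9 to 12 higher, ER chaperones 11 to 13, fatty acid synthesis 8, tubulins 6 to 7 and heat shock 4 to 7, and the urea cycle kept 6 lower, bile acid genes 7 to 8, autophagy 10 to 13, amino acid breakdown 6 to 12 and acute-phase genes 3 to 8. Of the 39 list medians, 25 moved under some choice. That of the cholesterol list went from 0.71 to 0.11 with the deposited values taken as they are.

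Replicate numbers are shared by all groups, but libraries with the same number did not deviate together (correlations of -0.067 to 0.089 over the pairs, with 1 of 4 ZT8 and 0 of 4 ZT20 libraries closest to its own number), so they were not taken as pairs. With the replicate number as a block, 4757 genes were called in DRF, 5335 between regimens, 6288 for the mean of both and 4773 for the neighbouring hours, and 6 named genes lost their call.

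A recovered count is not 1 read, and its unit is not known. The precision that depth gives therefore cannot be stated. Genes near or under 1 scaled count have differences compressed by the pseudocount.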

Other observations

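Of 10 heme genes 3 were called higher at ZT8 and 0 lower (median 0.15). Alad, the second enzyme of heme synthesis, read 144, 132, 146 and 141 at ZT8 and 80.3, 74.1, 72.2 and 79.7 at ZT20, 1.84-fold higher without overlap, and was not called in NRF (0.07 ± 0.11). Blvrb, which reduces biliverdin, was higher as well (0.62 ± 0.10). Alas1, the rate-limiting enzyme, was not called (0.17 ± 0.37), although it was called higher between the neighbouring DRF hours (1.57 ± 0.26). Of 12 genes of NAD metabolism 1 was higher, Nampt, and 3 were lower, Nnmt, the mitochondrial deacylase Sirt3 (-0.39 ± 0.08) and the nuclear NAD synthase Nmnat1 (-0.23 ± 0.08).

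Zonation genes did not move as one set. Of 12 pericentral genes 1 was higher, Lect2 (0.83 ± 0.28), and 3 were lower, the glutamate transporter Slc1a2 (-0.98 ± 0.11), the transcription factor Tbx3 (-0.83 ± 0.17) and Oat. Slc1a2 read 59.5, 73.1, 87.4 and 74.9 at ZT8 and 134, 153, 137 and 158 at ZT20, and the sign was reversed in NRF (0.59 ± 0.11). In NRF 7 of the 12 were higher and 0 lower. Of 10 periportal genes 0 were higher and 3 lower, Pck1, Arg1 and Cyp2f2 (-0.33 ± 0.10; Gm15883 on the opposite strand covers 13.5% of its exon bases). Of 15 matrix genes Nid2 (0.42 ± 0.13) and Col4a2 (0.42 ± 0.12) were higher and Lamb1 (-0.23 ± 0.07) was lower. The sign for Nid2 was reversed in NRF (-0.64 ± 0.13) and that for Col4a2 was not (0.71 ± 0.12).

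Immediate early genes, which are transcribed within minutes of a stimulus, were highest in ZT20 replicate 2. Of 16 members Myc (0.52 ± 0.18) was called higher at ZT8 and Jun (-0.70 ± 0.24) and Junb (-1.18 ± 0.39) lower. Egr1 read 1.86, 4.28, 0.485 and 1.55 at ZT8 and 1.44, 34.2, 1.67 and 1.83 at ZT20, Junb 2.16, 2.25, 1.58 and 1.64 and 2.95, 18.8, 2.85 and 5.11, and Atf3 3.91, 4.21, 4.98 and 4.23 and 4.98, 16.7, 6.52 and 6.73. In each of these ZT20 replicate 2 was the highest of the 8 libraries, and it was also the highest for Nr1d1, G0s2, Fgf21, Rgs16 and Trib3, genes picked out here after their values were seen. Its part in the ZT8 to ZT20 differences was measured only by leaving it out. Without it, neither Jun nor Junb kept its call (-0.35, adjusted p = 0.322 and -0.65, adjusted p = 0.262). Jun also lost its call without ZT20 replicate 3 or ZT8 replicate 1, 2 or 3, and Junb without ZT8 replicate 3 or 4. Myc lost its call without ZT20 replicate 1, 2 or 3 or ZT8 replicate 1, 3 or 4.

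By annotation class, lncRNA genes had more calls higher than lower at ZT8, unlike protein-coding genes, but at a low level. Their median was 0.23 scaled counts, against 6.60 for protein-coding genes. Of 4620 annotated lncRNA genes 501 were called higher at ZT8 and 86 lower (12.7% called). Removing the exon-length trend left 451 higher and 388 lower. For 2449 pseudogenes the split was 156 higher and 58 lower, and 112 higher and 677 lower with the trend removed. For 1147 assembled loci without an Ensembl identifier it was 64 higher and 51 lower, and 33 higher and 207 lower with the trend removed. No direction is given for any of these classes. Of 13 lncRNA genes linked to RNA processing only Snhg8 was called (0.30 ± 0.11; 15.2% of its exon bases are shared with Snora24 on the same strand).

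Among rarer cell types, 1 of 6 T and B cell markers was called higher and 0 of 3 neutrophil markers were called. Their lists summed to 1.01 to 2.43 and 1.74 to 3.35 scaled counts at ZT8 and to 0.926 to 2.68 and 2.39 to 3.18 at ZT20. The 1 pancreatic acinar marker measured, Cela2a, read 0.466, 0.574, 0.432 and 0.453 at ZT8 and 0.456, 0.195, 0.234 and 0.297 at ZT20. All were near the floor of detection.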
